A study of Mus musculus with 4 samples.

Results

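Alveolar type 1 genes were followed in RNA from sorted mouse lung smooth muscle cells. The set was chosen by name as 8 established markers of the alveolar type 1 cell: *Ager*, *Hopx*, *Aqp5*, *Pdpn*, *Emp2*, *Rtkn2*, *Clic5* and *Cldn18*. All 8 were found among the 21462 genes of the deposited table, and all 8 were among the 16659 genes whose mean over the 4 libraries was at least 10 and which were tested. The study asked how loss of TET3, an enzyme that oxidizes 5-methylcytosine in DNA, alters transcription in smooth muscle cells. RNA-seq libraries came from 2 control and 2 *Tet3* mutant mice, all C57BL/6. By the study's methods, the mutants carried floxed *Tet3* alleles, the tamoxifen-inducible α-SMA ERT2Cre transgene and the ROSA26 tdTomato reporter. Over all experiments of the study, controls lacked the floxed alleles and carried the Cre, the reporter or both. Controls from which tdTomato+ cells were sorted needed both the Cre and the reporter. Tamoxifen was given from 8 weeks of age. The α-SMA promoter drives Cre wherever it is active, so the reporter marks any cell that has recombined under it. Lungs were dissociated, blood and immune cells were depleted with CD45 and Ter-119 beads, and living tdTomato+ cells were sorted. No step directed at epithelial cells is described, and the age and sex of the animals behind these libraries are not given in the sources used here.

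Alveolar type 1 cells are very thin, flat epithelial cells that cover nearly all of the gas exchange surface of the lung and share a basement membrane with the capillary endothelium. Alveolar type 2 cells, which make surfactant, divide and give rise to new type 1 cells after injury. Several type 1 markers are shared with other lung cells: *Pdpn* is also a standard marker of lymphatic endothelium and is found in mesothelium and some fibroblasts, *Cldn18* is also made by alveolar type 2 cells, and *Clic5* and *Emp2* are also expressed outside the epithelium. Type 1 cells are not smooth muscle, so these genes are read here as transcripts present in a sort labelled smooth muscle. In bulk RNA, fewer cells of a type and less RNA per cell cannot be told apart.

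The deposited totals lay between 6805272 and 7164573 normalized counts, with reads in genes estimated at 6.32 M to 7.56 M. *Tet3* itself was lower in the mutants, at 1847 and 1926 normalized counts in the controls and 1534 and 1444 in the mutants, with a limma p of 0.0184 that became 0.681 after adjustment. One library stood apart: *Xist* was at 2 in control replicate 2 against 5214 to 6781 in the other 3, and *Ddx3y* was at 774 there and at 0 in the others, so that library carried Y-linked RNA and almost no *Xist*. The controls also differed more from each other than the mutants did. The squared difference between replicates divided by their sum averages near 1 over genes for counting noise. Among 10888 genes averaging 100 or more, its mean was 24.9 in the controls and 6.49 in the mutants. Its median, which lies below 1 for counting noise, was 4.48 in the controls and 1.75 in the mutants. Only control replicate 2 differed in *Xist* and *Ddx3y*, so sex of the animal cannot be separated from other traits of that replicate. The members and the epithelial lists are therefore also given without control replicate 2. That leaves 1 control, so genotype cannot then be separated from the traits of that animal.

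Because TET3 acts on cytosines in CpG dinucleotides, the windows around the transcription start sites of 4 members are shown, chosen to span the range of CpG number in the set: *Ager* and *Aqp5* hold the fewest and the most, and *Cldn18* and *Clic5* lie between. The sequences are from RefSeq (GRCm38.p6), run 5′ to 3′ on the strand of the gene, and comprise 250 bases before and 50 bases after the start. Each CpG is in capitals and the other bases are in lower case. They lie at chr17:34597600-34597899 (plus strand) for *Ager*, chr15:99590778-99591077 (plus strand) for *Aqp5*, chr9:99717218-99717517 (minus strand) for the first start of *Cldn18* and chr17:44188322-44188621 (plus strand) for *Clic5*.
Ager: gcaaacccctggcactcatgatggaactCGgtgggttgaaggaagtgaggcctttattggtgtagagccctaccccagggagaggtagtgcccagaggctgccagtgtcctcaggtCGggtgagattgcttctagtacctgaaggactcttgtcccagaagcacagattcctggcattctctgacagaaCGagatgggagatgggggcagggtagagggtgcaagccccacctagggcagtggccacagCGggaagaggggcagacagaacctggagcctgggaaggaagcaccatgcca
Aqp5: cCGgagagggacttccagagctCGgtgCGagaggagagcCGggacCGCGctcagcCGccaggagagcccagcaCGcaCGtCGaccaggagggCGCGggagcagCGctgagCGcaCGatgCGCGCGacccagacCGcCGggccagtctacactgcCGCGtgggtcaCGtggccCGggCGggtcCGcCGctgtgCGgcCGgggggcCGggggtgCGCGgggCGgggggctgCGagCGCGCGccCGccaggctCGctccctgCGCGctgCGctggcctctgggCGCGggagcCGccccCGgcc
Cldn18: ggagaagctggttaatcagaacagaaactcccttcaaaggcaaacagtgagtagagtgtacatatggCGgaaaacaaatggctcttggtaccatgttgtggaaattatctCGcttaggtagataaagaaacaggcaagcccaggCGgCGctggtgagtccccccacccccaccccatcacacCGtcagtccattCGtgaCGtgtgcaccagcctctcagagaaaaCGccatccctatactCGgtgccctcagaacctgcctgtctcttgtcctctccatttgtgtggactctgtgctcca
Clic5: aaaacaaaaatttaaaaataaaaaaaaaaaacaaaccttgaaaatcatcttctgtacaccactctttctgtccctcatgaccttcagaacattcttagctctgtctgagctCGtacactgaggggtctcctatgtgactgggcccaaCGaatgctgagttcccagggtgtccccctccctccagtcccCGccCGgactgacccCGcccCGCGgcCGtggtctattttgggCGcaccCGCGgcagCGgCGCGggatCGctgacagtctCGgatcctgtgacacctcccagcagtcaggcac

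The *Ager* window held 4 CpG, with 31.4% of 32851 mouse promoter windows of that length holding fewer. The *Aqp5* window held 46, with 98.4% holding fewer, and it lies almost wholly within the deposited *Aqp5* gene model, whose start is 246 bases upstream of the RefSeq start. *Cldn18* held 9 at its first start and 10 at its second, *Clic5* held 16 and *Emp2* held 16. *Pdpn* held 7, which is the median over all windows, and *Hopx* held 8 at its first start and 21 at its second. In all, 7 of the 8 members were matched, with 9 windows between them, and *Rtkn2* was not matched. The deposited start of *Clic5* lies 53804 bases upstream of the RefSeq start. The letters GGAATG, the core bound by TEAD factors that act with YAP and TAZ, were searched on both strands and occurred in 0 of the 9 windows, against 14.7% of all windows. The letters CAAGTG, a core bound by NKX2-1, occurred in 2 of the 9, the second starts of *Hopx* and *Cldn18*, against 13.6% of all windows. These are letter matches in a short window, and DNA methylation or factor binding was not measured in these libraries.

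All 8 members were detected in every library, from 76 normalized counts for *Rtkn2* in mutant replicate 1 to 2377 for *Emp2* in control replicate 2. None of the 8 passed an adjusted p of 0.05, and 0 of the 16659 genes tested did (0% of the table). At an unadjusted limma p under 0.05, 1 of the 8 was counted, *Pdpn*, against 1112 genes or 6.68% of all genes tested (3.83% higher and 2.85% lower in the mutants), and *Pdpn* was higher. In 5 of the 8 the mutant mean was lower on the log2 scale, against 51.0% of all genes tested, and the median log2 fold change of the 8 was -0.34 beside -0.01 for all genes. The 2 groups did not overlap for 3 of the 8 members, *Hopx* and *Pdpn* higher and *Emp2* lower in the mutants, which is close to the 39.0% of all genes tested whose groups did not overlap (19.6% higher and 19.5% lower). Without control replicate 2 the median of the 8 was -0.033, and without control replicate 1 it was -0.63.

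**Figure D1:**
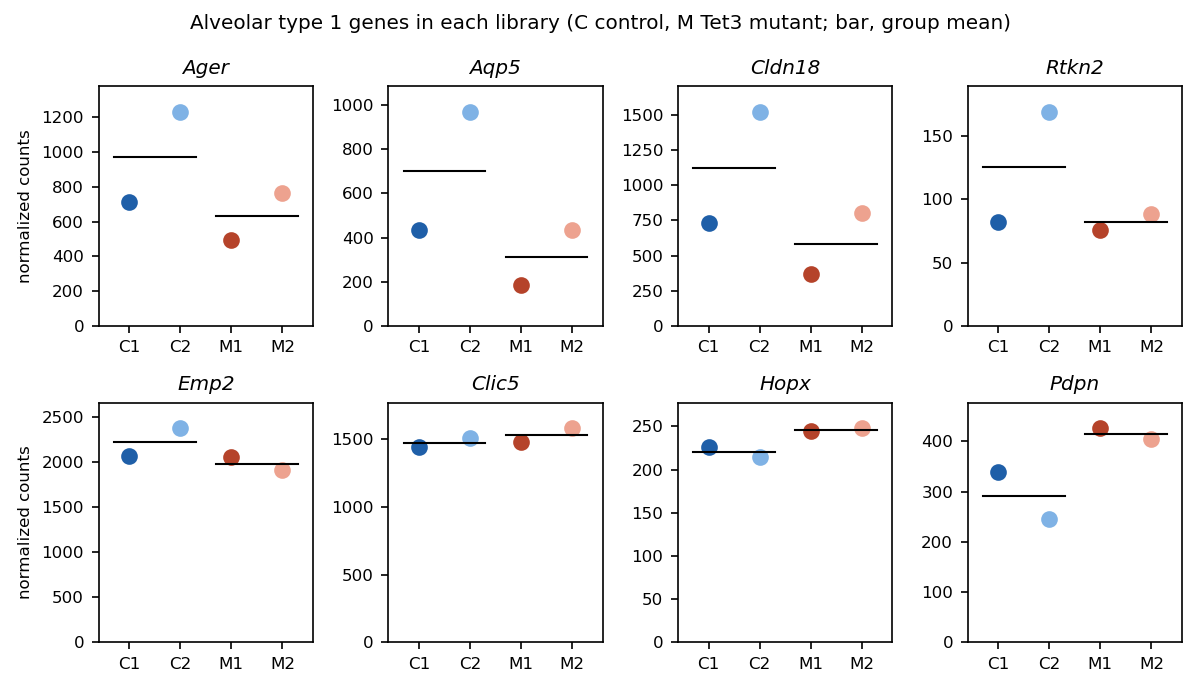
Normalized counts (vertical axes) of the 8 alveolar type 1 genes in the 2 control and 2 Tet3 mutant libraries, with points for libraries and a line for each group mean. Control replicate 2 is the highest library for Ager, Aqp5, Cldn18, Rtkn2 and Emp2, while Hopx and Pdpn have both mutants above both controls.

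The members fell into sets of 4 by how far the libraries lay apart, a division made after the values were seen and given as a description. In *Ager*, *Aqp5*, *Cldn18* and *Rtkn2* the highest library was over 2 times the lowest, and in *Emp2*, *Clic5*, *Hopx* and *Pdpn* it was under 2 times. The highest library was over 1.5 times the lowest in 5 of the 8, these 4 and *Pdpn*, against 44.7% of all genes tested. Control replicate 2 was the highest library in 5 of the 8, the first 4 and *Emp2*, against 33.2% of all genes. In 4 of the 8 it was over 1.5 times each of the other libraries, against 7.67%. Control replicate 2 was the highest library and mutant replicate 1 the lowest in 4 of the 8, against 14.4% of all genes tested. Both counts are made up of the first 4 named above. Those were set apart by a wide range, which favours genes with an extreme library, so these counts are no test of that division.

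*Ager* encodes RAGE, a receptor for glycated proteins that is abundant on the basal surface of type 1 cells (ENSMUSG00000015452, GRCm38 chromosome 17, 34597862 to 34600936, plus strand). It measured 710 and 1232 normalized counts in the controls and 497 and 766 in the mutants. Mutant replicate 2 lay above control replicate 1, so the groups overlapped. The means were 971 ± 369 and 631.5 ± 190 (SD, n = 2 each), which gave -0.60 ± 0.33 (SE) as the log2 fold change (limma adjusted p of 0.689). Leaving out control replicate 2 brought it to -0.20, and the other single-library omissions kept it below 0.

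*Aqp5* encodes a water channel of the apical membrane (ENSMUSG00000044217, chromosome 15, 99590782 to 99594829, plus strand). Its values were 433 and 970 in the controls and 186 and 434 in the mutants. Control replicate 1 and mutant replicate 2 were practically equal, and the spread came from the other pair of libraries, which differed 5.22-fold. This was the widest range among the 8 members. The log2 fold change was -1.19 ± 0.54 with a limma adjusted p of 0.681, and it ran from -1.80 to -0.58 as single libraries were left out, the value nearest 0 without mutant replicate 1, and was -0.61 without control replicate 2.

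*Cldn18* encodes a tight junction claudin that seals the alveolar epithelium (ENSMUSG00000032473, chromosome 9, 99689461 to 99717267, minus strand). The controls had 729 and 1522 normalized counts and the mutants 372 and 799. As for *Aqp5*, mutant replicate 2 lay just above control replicate 1. The log2 fold change of -0.95 ± 0.49 had a limma adjusted p of 0.687, and it was -0.42 without control replicate 2 and -0.40 without mutant replicate 1.

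*Rtkn2* is used as a marker of type 1 cells (ENSMUSG00000037846, chromosome 10, 67979570 to 68059740, plus strand). It measured 82 and 169 in the controls and 76 and 88 in the mutants, so that 3 libraries were alike and control replicate 2 stood above them. Its log2 fold change of -0.52 ± 0.39 had a limma adjusted p of 0.729 and was -0.0038 without control replicate 2. An opposite-strand gene model, *Gm16212*, overlaps its exons, and whether strand was used in counting is not stated, so its values carry that uncertainty.

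*Emp2* encodes a tetraspan membrane protein that associates with caveolae and integrins (ENSMUSG00000022505, chromosome 16, 10281749 to 10313968, minus strand). It had the most counts of the 8, at 2072 and 2377 in the controls and 2053 and 1916 in the mutants. Both mutants lay below both controls, although mutant replicate 1 was only just below control replicate 1. The log2 fold change was -0.16 ± 0.12, with a limma adjusted p of 0.727. Without control replicate 2 it was -0.063.

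*Clic5* encodes a chloride intracellular channel protein tied to the cortical actin cytoskeleton (ENSMUSG00000023959, chromosome 17, 44134768 to 44280172, plus strand). With 1447 and 1507 in the controls and 1479 and 1583 in the mutants, it had the narrowest range of the 8. The groups overlapped, and the log2 fold change was 0.05 ± 0.10, or 0.081 without control replicate 2.

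*Hopx* encodes a small homeodomain protein without DNA binding of its own that marks type 1 cells and their progenitors (ENSMUSG00000059325, chromosome 5, 77086988 to 77115121, minus strand). Its values were 226 and 215 in the controls and 245 and 248 in the mutants. Both mutants were above both controls, by a margin of 0.16 ± 0.15 on the log2 scale (limma adjusted p of 0.768). Without control replicate 2 that margin was 0.12. The opposite-strand gene *Hopxos*, whose exons overlap it, had 6 to 9 counts.

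*Pdpn* encodes podoplanin, the T1α glycoprotein of the apical membrane (ENSMUSG00000028583, chromosome 4, 143267431 to 143299564, minus strand). It measured 339 and 245 in the controls and 426 and 404 in the mutants. Here control replicate 2 was the lowest library and both mutants were higher than both controls. The means were 292 ± 66.5 and 415 ± 15.6 (SD, n = 2 each), a ratio of 1.44. Its log2 fold change was 0.52 ± 0.19, with an unadjusted limma p of 0.0417 and an adjusted one of 0.681, and it was 0.29 without control replicate 2.

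**Figure D2:**
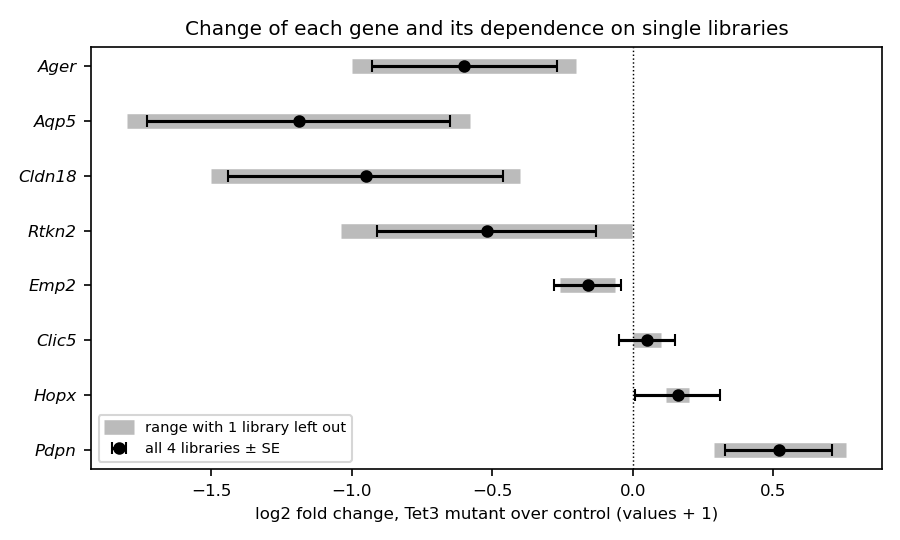
The log2 fold change of each gene, Tet3 mutant over control (horizontal axis), with points and bars for the estimate and its SE from all 4 libraries and grey bands for the range when 1 library is left out. Aqp5 has the widest band, from -1.80 to -0.58, and the bands of Rtkn2 and Clic5 end close to 0.

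The difference between replicates was far above counting noise for some members and within it for others. The squared difference divided by the sum was 140 between the controls and 57.3 between the mutants for *Ager*, 206 and 99.2 for *Aqp5*, and 279 and 156 for *Cldn18*. For *Hopx* it was 0.274 and 0.0183, and for *Clic5* 1.22 and 3.53. *Rtkn2* and *Pdpn* were split, with 30.2 and 15.1 between the controls and 0.878 and 0.583 between the mutants. *Emp2*, although its range was narrow, had 20.9 between the controls and 4.73 between the mutants, above counting noise. Summed over *Ager*, *Aqp5*, *Cldn18* and *Rtkn2*, the libraries had 1954 and 3893 normalized counts in the controls and 1131 and 2087 in the mutants. The sum of *Emp2*, *Clic5*, *Hopx* and *Pdpn* was 4084 and 4344 in the controls and 4203 and 4151 in the mutants. The sum of all 8 was 6038 and 8237 against 5334 and 6238, a log2 difference of -0.29 with an exact two-sided permutation p of 0.667, where 0.333 is the smallest that 2 against 2 libraries allow. The 8 genes together took 0.0774% to 0.115% of a library's total.

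Levels were compared between genes after division by exon length. Per kilobase of exon, *Ager* had the highest mean over the 4 libraries, at 374 normalized counts, followed by *Emp2* at 243, *Aqp5* and *Pdpn* at 195 each, *Cldn18* at 192, *Clic5* at 171, *Hopx* at 154 and *Rtkn2* at 18.7, beside a median of 53.9 over all genes tested with an exon length. *Clic5* was above *Hopx* and *Hopx* above *Rtkn2* in all 4 libraries. The order of *Ager* and *Emp2*, of *Emp2* and *Aqp5* and of *Pdpn* and *Cldn18* held in 3 of the 4 libraries. The orders of *Aqp5* and *Pdpn* and of *Cldn18* and *Clic5* each held in 1 library, so those neighbours did not differ beyond the spread. The per-kilobase median was 615 for 10 alveolar type 2 markers, 136 for 12 pan-epithelial genes, 222 for 10 smooth muscle genes and 249 for 10 endothelial genes. The smooth muscle genes spanned 24.2 to 445 per kilobase, a range that held the means of 7 of the 8 members, with *Rtkn2* below it. Among them *Acta2*, the smooth muscle actin whose promoter drives the Cre, measured 686 and 900 in the controls and 1032 and 929 in the mutants.

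**Figure D3:**
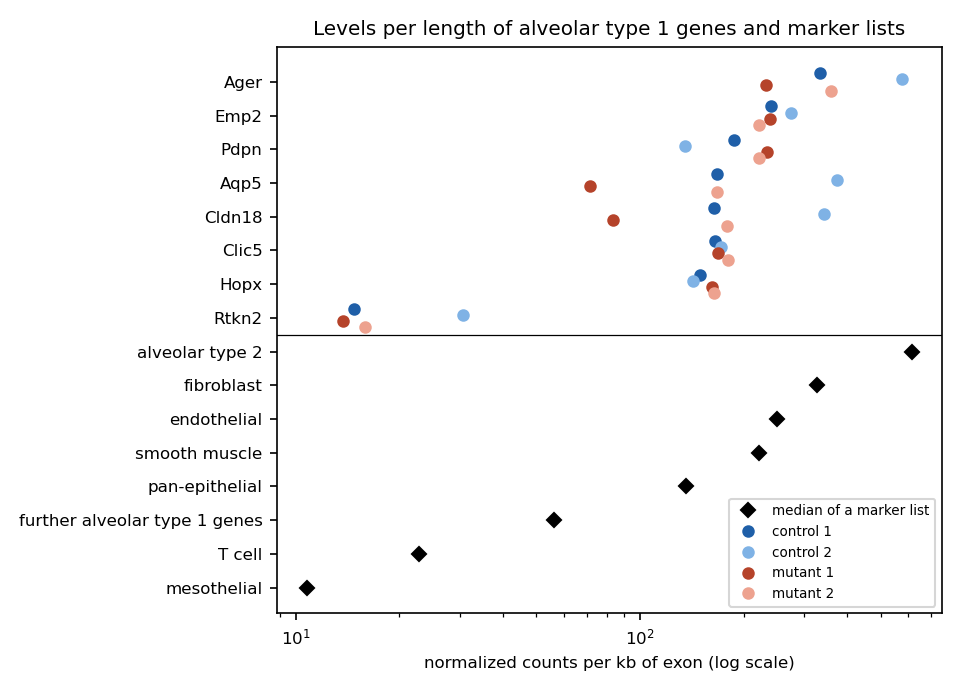
Normalized counts per kilobase of exon on a log axis, with points for each of the 4 libraries for the 8 genes and diamonds for the median of a marker list over the mean of the libraries. Ager has the highest mean at 374 and Rtkn2 the lowest at 18.7, and the alveolar type 2 list lies above them at 615.

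Over all 4 libraries, pan-epithelial and alveolar type 2 markers moved with *Ager*, *Aqp5*, *Cldn18* and *Rtkn2*, and airway markers did not. For club cell markers that rested on control replicate 2. The sum of 12 pan-epithelial genes, among them the adhesion genes *Epcam* and *Cdh1*, was 4227 and 7831 in the controls and 3562 and 4806 in the mutants, with control replicate 2 the highest library in 9 of the 12 genes. The sum of 10 alveolar type 2 markers was 17366 and 25984 in the controls and 12067 and 15677 in the mutants, with an exact permutation p of 0.333. All 10 had a negative log2 fold change, 9 had both mutants below both controls, and 4 had an unadjusted limma p under 0.05 (*Abca3*, *Lamp3*, *Etv5* and *Slc34a2*), beside 19.5% and 2.85% of all genes that were lower by those measures. Without control replicate 2, 9 of the 10 stayed negative, 0 had an unadjusted limma p under 0.05 and the log2 difference of the sum went from -0.63 to -0.34. The pan-epithelial sum then went from -0.48 to -0.03, and the median log2 fold change of that list turned from -0.61 to 0.09. *Abca3*, the lipid transporter of lamellar bodies, measured 3360 and 5981 in the controls and 2080 and 2929 in the mutants. As a share of the pan-epithelial sum, the 4 type 1 genes made 46.2% and 49.7% in the controls and 31.8% and 43.4% in the mutants. As a share of the type 2 sum they made 9.37% and 13.3% in the mutants, against 11.3% and more than that in the controls. In both ratios mutant replicate 1 was the lowest library, and the groups overlapped for the type 2 ratio and did not for the pan-epithelial ratio. Where a 3.44-fold range separated the libraries in the summed level of these 4 genes, the range was 1.57-fold and 1.6-fold in the ratios. These 4 had been set apart by their wide range, so the narrower range of the ratios is a description and no test. Of 10 markers of ciliated airway cells, all 10 had both mutants above both controls and 7 had an unadjusted limma p under 0.05, beside 19.6% and 3.83% of all genes that were higher by those measures, with sums of 2755 and 3102 in the controls and 5464 and 3864 in the mutants. The sum of 6 club cell markers was 2934 and 1284 in the controls and 1913 and 2431 in the mutants, lowest in control replicate 2 where the 4 type 1 genes were highest. Among the other libraries that sum was lowest in mutant replicate 1, as the 4 type 1 genes were. Without control replicate 2 all 6 club markers had a negative log2 fold change. The log2 difference of their sum then went from 0.15 to -0.44, and that of the ciliated sum from 0.65 to 0.74. The part of epithelial RNA in the values of the members was not tested.

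**Figure D4:**
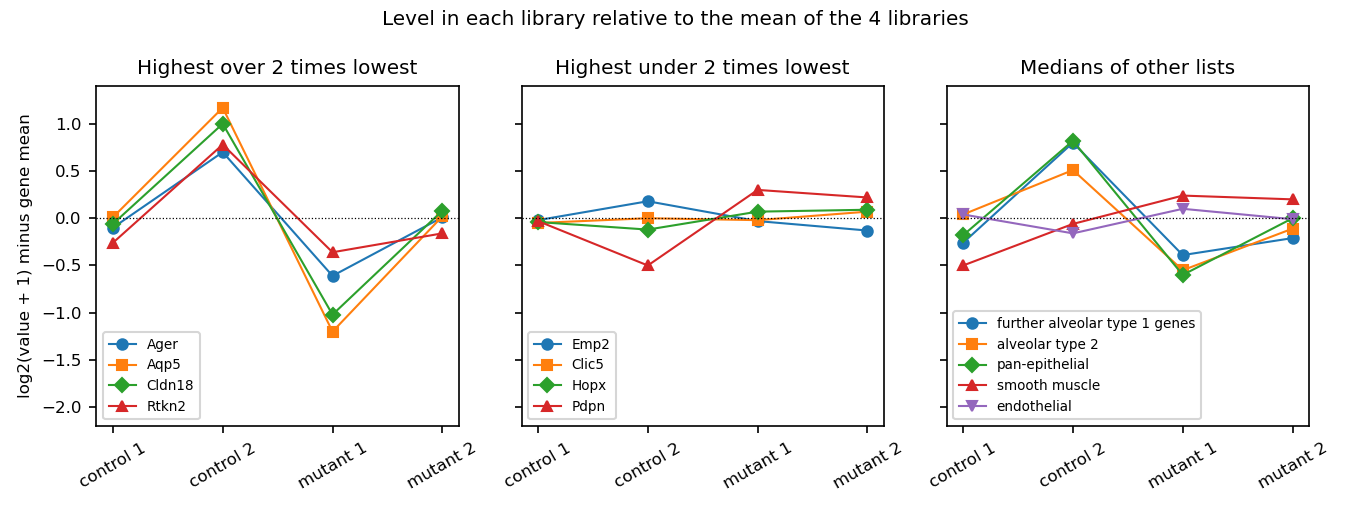
Level in each library relative to the mean of the 4 libraries, as log2(value + 1) minus its mean (vertical axes), for Ager, Aqp5, Cldn18 and Rtkn2 (left), for Emp2, Clic5, Hopx and Pdpn (middle) and as the median over the genes of 5 other lists (right), with lines joining libraries only as a guide. The left set and the further type 1, type 2 and pan-epithelial medians are highest in control replicate 2 and lowest in mutant replicate 1, and the smooth muscle median is not.

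*Pdpn* and *Hopx*, the members whose mutants lay above the controls, did not share that pattern. Markers of lymphatic endothelium, where podoplanin is also made, were higher in the mutants in 5 of 6 genes without overlap, beside 19.6% of all genes, and their sum was 2843 and 2997 in the controls and 3707 and 3442 in the mutants. *Lyve1*, the hyaluronan receptor of lymphatic vessels, measured 898 and 912 in the controls and 1128 and 1123 in the mutants (limma p of 0.0233), and *Mmrn1* measured 591 and 674 against 821 and 872 (limma p of 0.0173), both with an adjusted p of 0.681. The sum of 5 mesothelial markers, another source of podoplanin, was 768 and 320 in the controls and 505 and 443 in the mutants. Control replicate 2 was the lowest library for that sum, as it was for *Pdpn*. Most of the sum was *Upk1b*, with 524 and 257 in the controls and 433 and 358 in the mutants. The median log2 fold change of the 5 was -0.64, with 3 below 0, whereas that of *Pdpn* was 0.52. Without control replicate 2 the mesothelial median was -1.71. The sum of 10 smooth muscle markers was 10355 and 10700 in the controls and 12219 and 11213 in the mutants. Of these 10, 6 had both mutants above both controls and 4 had an unadjusted limma p under 0.05, all of them higher. Over all genes tested, 19.6% and 3.83% were higher by those measures. Fibroblast markers summed to 20867 and 17313 against 21393 and 19250, endothelial markers to 12652 and 11212 against 13061 and 12194, and T cell markers to 790 and 228 against 846 and 877, each lowest in control replicate 2. The part of these cells in the *Pdpn* and *Hopx* values was not tested.

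A further list of 16 genes used as type 1 markers was mostly lower in the mutants, as *Ager* was. Of the 15 tested, 12 had a negative log2 fold change, against 51.0% of all genes tested, with a median of -0.55. The 3 positive ones were *Spock2*, *Igfbp2* and *Sema3e*. Control replicate 2 was the highest library in 11, against 33.2% of all genes tested. Without that library the median was -0.047, with 10 below 0 and 5 above, beside -0.20 for *Ager*. *Wnt7a* was below the minimum, with 3 to 10 normalized counts. *Gprc5a*, a receptor of the lung epithelium, measured 378 and 844 in the controls and 225 and 397 in the mutants. *Lmo7*, an adherens junction protein, had 1065 and 2249 against 1003 and 1106. *Vegfa*, the endothelial growth factor that type 1 cells supply to capillaries, had 1681 and 1537 against 1400 and 1321. Both mutants lay below both controls for *Vegfa*, and control replicate 2 was not its highest library. Only *Sema3e*, a semaphorin, had an unadjusted limma p under 0.05 on this list, with 234 and 284 in the controls and 426 and 357 in the mutants (limma p of 0.0185, adjusted p of 0.681), and it was higher in the mutants.

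Of 12 genes that regulate the type 1 fate, 10 had a negative log2 fold change, with a median of -0.25. *Nkx2-1*, the lung epithelial homeobox factor needed by type 1 and type 2 cells alike, measured 685 and 1501 in the controls and 378 and 540 in the mutants, without overlap (log2 fold change -1.16 ± 0.40, limma p of 0.0336, adjusted p of 0.681). *Klf5*, a zinc finger factor of the alveolar epithelium, measured 306 and 571 in the controls and 153 and 228 in the mutants (log2 fold change -1.16 ± 0.36, limma p of 0.023, adjusted p of 0.681). Like *Aqp5*, both had control replicate 2 as the highest and mutant replicate 1 as the lowest library. Without control replicate 2 the log2 fold change was -0.60 for *Nkx2-1* (limma p of 0.124) and -0.71 for *Klf5* (limma p of 0.118), and the median of the 12 was -0.17. Among the Hippo pathway factors, which are expressed in most lung cells, *Tead4* and *Tead2* varied, and *Yap1*, *Wwtr1*, *Tead1* and *Tead3* were flat in comparison. *Tead4* had control replicate 2 highest and mutant replicate 1 lowest, at 151 and 237 against 132 and 184. *Tead2* was lowest in control replicate 2, at 259 and 171 in the controls and 229 and 286 in the mutants. *Tead3* measured 531 and 530 against 486 and 472. *Yap1* measured 1040 and 1252 in the controls and 1034 and 1013 in the mutants, *Wwtr1*, which encodes TAZ, had 1115 and 1160 against 1234 and 1249, and *Tead1* had 1452 and 1300 against 1339 and 1194. Relative to *Nkx2-1*, *Aqp5* stood at 0.632 and 0.646 in the controls and 0.492 and 0.804 in the mutants, so the mutants lay on both sides of the controls. *Ager* relative to *Nkx2-1* was 1.04 and 0.821 in the controls and 1.31 and 1.42 in the mutants.

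Relatives of the members in the same protein families covered both patterns. Among 15 relatives, 10 had a positive log2 fold change, and the median was 0.12. Of the epithelial claudins, *Cldn3* and *Cldn7* followed *Cldn18*, at 369 and 753 against 204 and 385 for *Cldn3* and at 124 and 374 against 108 and 174 for *Cldn7*. *Cldn4* did not, at 9 and 7 against 11 and 15, with a mean of 10.5 that barely passed the minimum. Without control replicate 2 the log2 fold change was -0.40 for *Cldn3* and 0.14 for *Cldn7*, beside -0.42 for *Cldn18*. *Cldn5*, the claudin of endothelium, did not follow *Cldn18* either, with 675 and 580 in the controls and 692 and 634 in the mutants. *Rtkn*, the paralogue of *Rtkn2*, measured 404 and 964 in the controls and 257 and 382 in the mutants. Where *Aqp5* ranged 5.22-fold, *Aqp1*, the water channel of capillary endothelium, had 1352 and 1191 in the controls and 1472 and 1410 in the mutants. *Clic3* had control replicate 2 highest and mutant replicate 1 lowest, with 116 and 327 against 70 and 138, whereas *Clic4* had 2355 and 2262 against 2482 and 2284. *Clic6* was the relative with an unadjusted limma p under 0.05, at 184 and 186 in the controls and 265 and 271 in the mutants (limma p of 0.0149, adjusted p of 0.681).

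Genes close to the mean profile of the 8 members were found by the distance between centred log2 profiles over the 4 libraries. That mean profile was -0.07 and 0.40 in the controls and -0.36 and 0.03 in the mutants. It averages unlike members, such as *Aqp5* at 1.17 and *Pdpn* at -0.5 in control replicate 2. A gene close to it is therefore not like each member. The 5 closest outside the lists were *Cyp39a1*, *Rnpepl1*, *Arf6*, *Sord* and *Dtx2*, at distances of 0.0444 to 0.0592 log2 units. *Cyp39a1*, an oxysterol hydroxylase, measured 210 and 290 in the controls and 176 and 221 in the mutants. With 4 libraries a profile has few degrees of freedom, and these likenesses are descriptions.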

How the data were processed

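RNA-seq libraries from tdTomato+ sorted lung cells were grouped as 2 control and 2 *Tet3* mutant samples by the genotype in the labels. By their methods, the authors depleted ribosomal RNA, made stranded libraries, trimmed reads with Trimmomatic 0.36, aligned them with STAR 2.6.0c to mm10 (GRCm38) and counted exonic reads with featureCounts (Subread 1.6.0), without reads mapping to several places or genes. What the authors deposited is a score, namely counts that they scaled with DESeq2 and then rounded, and not the raw counts, so count-based tests were not used. Genes averaging at least 10 (16659 of 21462) were tested on log2(value + 1) in R 4.3.3 with the lmFit and trended eBayes steps of limma 3.58.1, with Benjamini-Hochberg adjustment over all of them and a threshold of 0.05. Fold changes on that scale understate changes of low genes. The fit was tested on simulated data with large changes and little spread between replicates. The most variable members spread far more, so that check does not bear on them. Exon lengths came from GENCODE vM21 and promoter windows from RefSeq, both on GRCm38.

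Scaling factors, and from them reads in genes, were estimated from which low whole numbers were missing or doubled in each library. The members and all gene lists were chosen with earlier results of these data known. Named genes were the 8 members, the 5 genes closest to their mean profile and a part of the lists. That part favoured genes with large means, with an unadjusted limma p under 0.05 or needed to state small counts. It was not complete: the ciliated, smooth muscle and mesothelial genes under that p are not named. Other named relatives, regulators and markers were chosen after their values were seen. The study gives 2 animals per group. Replicate numbers were not shown to pair the samples. Alternatives were other scalings, pseudocounts, minimums, no trend, a replicate block and leaving out each library.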

Additional observations from a re-analysis of the deposited data

How the results depend on the processing

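Under 12 alternatives, all 96 log2 fold changes of the 8 members kept their direction, and the smallest limma adjusted p of a member was 0.153. Other minimums, no trend and the replicate block cannot change the fold change of a gene here. Its direction could therefore move only under the other alternatives. Nearest 0 were *Clic5* at 0.0022 without mutant replicate 2 and *Rtkn2* at -0.0038 without control replicate 2. Fitted without the trend, limma called 1 gene of the table, *Hal* (adjusted p = 0.0307), against 0, and 0 members then had an unadjusted p under 0.05. As single libraries were left out, with the lone sample of a group assumed to vary like the others, 0 to 2 members had an unadjusted p under 0.05, 4 to 7 members did not overlap and the median log2 fold change ran from -0.63 to -0.033. Over all genes tested, 1.64% to 20.2% had such a p and 63.8% to 78.7% did not overlap in those fits, where 1 library faces 2. The 2 members counted without control replicate 1, when 20.2% of all genes were counted, were *Pdpn* and *Rtkn2*, and 7 members did not overlap without that library or without mutant replicate 2. The summed level ran from -0.51 to -0.07. With a replicate block, 4 members had an unadjusted limma p under 0.05 (*Ager*, *Aqp5*, *Cldn18* and *Pdpn*), against 9.83% of all genes tested. None of them had an adjusted p below 0.153. Deviations of same-numbered samples correlated at 0.13 over genes, and with 2 such pairs the numbers were not shown to pair the samples.

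With 2 libraries a group, the SE of *Aqp5* was 0.54 and that of *Clic5* 0.10 on the log2 scale, so differences of the size seen for *Aqp5* were not resolved. Raw counts were not recovered, and depth limits mainly *Rtkn2*, the member with the fewest counts.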
